A study of Schizosaccharomyces pombe with 6 samples.

Results

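The genes described here are 8 fission yeast genes of septum splitting, the cell wall or the septin ring as mitosis ends. They include the glucanase genes eng1, agn1 and exg1 and the surface protein genes adg1, adg2 and adg3. The others are the chitin synthase regulator gene cfh4 and mid2, which encodes an anillin-like protein of the septin ring. The 8 were picked by name from 5042 protein-coding genes with at least 2 probes in the gene or within 500 bp of it. Earlier results of these arrays were known when they were picked. All 8 were measured, by 94 of 42641 nuclear probes. RPA (replication protein A) covers DNA strands that have come apart, and it was immunoprecipitated through its subunit Ssb1 from Schizosaccharomyces pombe and hybridised to 6 two-colour tiling arrays against its own input. The 3 WT arrays carried cdc25-22 cells, and the other 3 carried ∆rad3 cdc25-22 cells, which lack the ATR-family checkpoint kinase. The cdc25-22 allele, present in both groups, arrests the cycle ahead of mitosis when the culture is warmed. Both groups spent 4 h in this block at 36.5 °C, then returned to 25 °C in the presence of 6 mM hydroxyurea, an inhibitor of ribonucleotide reductase. How long after release the cells were taken is not given in the labels, and the labels of ∆rad3 replicate 3 name cdc25-23 for the input and cdc25-22 for the IP.

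After mitosis, fission yeast cells lay down a septum and part by digesting its primary layer and the wall at its rim. The genes for this step are transcribed in a burst as mitosis ends, a wave in which the fork-head factors Sep1 and Fkh2 take part. RPA marks single-stranded DNA at replication forks and elsewhere, and it brings Rad3 to such DNA.

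The fork-head factors are known to bind sites holding GTAAACAA. This motif was searched on both strands in the 300 bp before the annotated start of each gene in the RefSeq assembly ASM294v3. It lay in this window of 2 of the 8 genes, eng1 and exg1, and in 10.2% of the windows of 5112 protein-coding genes. Both windows are printed because they set 2 glucanase genes side by side: eng1, whose ratio dropped strongly without Rad3, and exg1, where it moved least. They run 5′ to 3′ in the direction of the gene and end at the base before its start, with matches on either strand, which did not overlap each other, in capitals. A match is no shown binding site.

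eng1 (chrI:998332-998631, plus strand): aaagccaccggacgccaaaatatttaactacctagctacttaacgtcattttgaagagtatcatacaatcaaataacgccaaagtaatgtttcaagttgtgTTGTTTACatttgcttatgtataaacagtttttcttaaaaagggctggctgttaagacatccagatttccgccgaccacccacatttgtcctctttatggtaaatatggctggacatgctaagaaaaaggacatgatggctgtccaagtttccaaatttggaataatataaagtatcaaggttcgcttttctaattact

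exg1 (chrII:3514304-3514603, plus strand): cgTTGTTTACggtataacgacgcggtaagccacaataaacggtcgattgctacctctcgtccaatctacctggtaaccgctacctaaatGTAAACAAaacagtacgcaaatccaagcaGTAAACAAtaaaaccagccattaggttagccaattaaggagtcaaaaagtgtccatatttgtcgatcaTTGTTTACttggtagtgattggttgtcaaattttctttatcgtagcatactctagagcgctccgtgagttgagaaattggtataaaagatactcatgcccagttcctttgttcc

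The match in eng1 began 199 bases before the gene start. exg1 held 4 matches, which began 298, 211, 182 and 114 bases before its start.

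Values below are log2 IP over input, as the mean over the probes of a gene and its 500 bp flanks, with the median probe of each array at 0. A level or a difference thus says where a gene stood among all probes and gives no absolute quantity of RPA. Means are given ± SD over the 3 arrays of a strain. The arrays had median intensities of 969.2 to 1106 for input and 1007 to 1145 for IP, and 99.07% to 99.94% of probes were well above background for input. For IP this share was 95.33% on WT replicate 3 and 98.72% to 99.37% on the other arrays. The number of arrays limits the precision. The rad3 gene, measured by 33 probes, had a median log2 input of -0.45 to -0.24 on the WT arrays and of -7.01 to -5.09 on the ∆rad3 arrays, matching the labels. WT and ∆rad3 arrays of the same replicate number shared a slide, and WT always took position 2 and ∆rad3 position 4, which means that position on the slide cannot be told apart from strain. Whether the replicates came from separate cultures is not stated, and their spread may be technical. A control IP was not analysed here.

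All 8 genes had a lower mean ratio in ∆rad3 than in WT, and on each of the 3 slides the ∆rad3 array was below the WT array at every gene, in 24 of 24 pairs. The mean over the 8 genes was 0.56, 1.04 and 0.81 on WT replicates 1 to 3 and 0.17, 0.42 and 0.17 on ∆rad3 replicates 1 to 3. Of all 5042 genes, 57.5% had a lower mean in ∆rad3 and 37.7% were lower on every slide. The median difference of the 8 was -0.50, against -0.05 over all genes. Since the list was drawn up with results of these arrays known, the levels and differences of the members are a description, and nothing is read from the counts of members called.

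**Figure D1:**
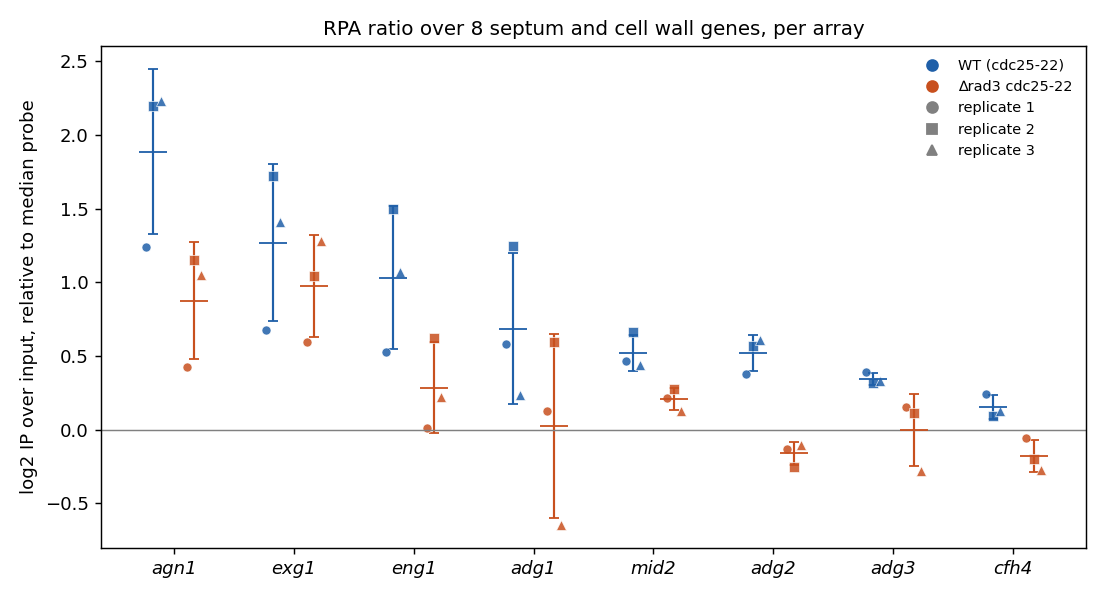
Log2 IP over input (relative to the median probe) of each gene with its 500 bp flanks, for each of the 3 WT arrays (blue) and 3 ∆rad3 arrays (orange). Symbols mark the replicate, horizontal bars the mean and whiskers the SD over 3 arrays; genes are ordered by their WT mean. The same symbol lies lower in orange than in blue at all 8 genes, and the strains overlap at exg1, eng1 and adg1.

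The glucanase genes carried the highest ratios. agn1 (SPAC14C4.09, chromosome I, 5244037 to 5245966 in ASM294v3, plus strand) encodes the α-glucanase that digests the wall at the rim of the septum. Its ratio was 1.24, 2.19 and 2.23 on WT replicates 1 to 3 and 0.42, 1.15 and 1.05 on ∆rad3 replicates 1 to 3. Every WT array was above every ∆rad3 array, and replicate 1 was the lowest of its strain in both. The mean dropped from 1.89 ± 0.56 to 0.88 ± 0.40, a difference of -1.01 or 2.02-fold, and the slides gave -0.82, -1.04 and -1.18. agn1 ranked 2nd of 5042 genes by its WT level and 84th by its ∆rad3 level, and its drop ranked 1st of all genes.

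eng1 (SPAC821.09, I, 998632 to 1002361, plus strand) encodes the β-glucanase that dissolves the primary septum. It stood at 0.53, 1.50 and 1.07 in WT and at 0.01, 0.62 and 0.22 in ∆rad3. WT replicate 1 lay below ∆rad3 replicate 2, so the strains overlapped, although each slide gave a drop (-0.52, -0.88 and -0.85). Its mean moved from 1.03 ± 0.48 to 0.28 ± 0.31, a difference of -0.75 or 1.68-fold. That drop ranked 5th of all genes. Without WT replicate 2 the difference was -0.49, and without ∆rad3 replicate 2 the ∆rad3 level was 0.12.

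exg1 (SPBC1105.05, II, 3514604 to 3516567, plus strand) encodes a secreted β-glucanase. Its ratio was high in both strains, with 0.68, 1.72 and 1.41 in WT and 0.60, 1.05 and 1.28 in ∆rad3. The arrays of the strains were interleaved. The mean was 1.27 ± 0.54 in WT and 0.97 ± 0.35 in ∆rad3, and the difference of -0.30 rested mainly on slide 2 (-0.67), with -0.08 and -0.13 on slides 1 and 3. Without WT replicate 2 the difference was 0.03, without ∆rad3 replicate 1 it was -0.14, and without WT replicate 1 it was -0.57.

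Among the surface protein genes, adg2 separated the strains most clearly. adg2 (SPAC19G12.16C, I, 4078389 to 4081156, minus strand) stood at 0.38, 0.57 and 0.61 in WT and at -0.13, -0.25 and -0.10 in ∆rad3. Every WT array was above 0 and every ∆rad3 array below it. The mean went from 0.52 ± 0.12 to -0.16 ± 0.08, a difference of -0.68 or 1.60-fold, the 7th largest drop of all genes, and the slides gave -0.51, -0.82 and -0.71.

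adg1 (SPAPJ760.03C, I, 5265435 to 5266485, minus strand) was the shortest of the genes and was read by 6 probes. It stood at 0.58, 1.24 and 0.24 in WT and at 0.13, 0.59 and -0.65 in ∆rad3. Its arrays spread widely and the strains overlapped, with ∆rad3 replicate 2 above WT replicates 1 and 3, yet the slides gave -0.45, -0.65 and -0.88. The means were 0.69 ± 0.51 and 0.03 ± 0.63, a difference of -0.66, the 9th largest drop. Single arrays weighed on these levels: the WT level was 0.41 without WT replicate 2, and the ∆rad3 level was -0.26 without ∆rad3 replicate 2 and 0.36 without ∆rad3 replicate 3.

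adg3 (SPCC18.01C, III, 1947837 to 1952199, minus strand), the longest gene of the 8, stood at 0.39, 0.31 and 0.33 in WT and at 0.16, 0.12 and -0.28 in ∆rad3. The strains did not overlap, but the difference of -0.35 drew on slide 3 (-0.61) more than on slides 1 and 2 (-0.23 and -0.20), and without replicate 3 of either strain or both it was -0.22. The means were 0.34 ± 0.04 and 0.00 ± 0.24.

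cfh4 (SPBC3E7.12C, II, 2682000 to 2683804, minus strand), a gene of the family that regulates chitin synthase, had the lowest WT level of the 8. It stood at 0.24, 0.09 and 0.13 in WT and at -0.06, -0.20 and -0.27 in ∆rad3. The strains did not overlap, and the mean went from 0.15 ± 0.08 to -0.18 ± 0.11, with -0.30, -0.29 and -0.40 on the slides. mid2 (SPAPYUG7.03C, I, 4748861 to 4751453, minus strand), whose product steadies the septin ring during septation, stood at 0.46, 0.66 and 0.44 in WT and at 0.21, 0.28 and 0.13 in ∆rad3. Here too the strains did not overlap, with means of 0.52 ± 0.12 and 0.21 ± 0.07 and slide differences of -0.25, -0.38 and -0.31.

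In WT the order of the levels was agn1, exg1, eng1, adg1, mid2, adg2, adg3 and cfh4. agn1 was above exg1 and exg1 above eng1 on each of the 3 WT arrays, although their SDs overlapped. The means of mid2 and adg2 were equal to 2 decimals. In ∆rad3 the order changed to exg1, agn1, eng1, mid2, adg1, adg3, adg2 and cfh4. exg1 and agn1 did not differ beyond their spread there, nor did adg1, adg3 and adg2.

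The strains did not overlap at 5 of the 8 genes (agn1, adg2, adg3, cfh4 and mid2), with every ∆rad3 array lower, as they did at 14.4% of all genes. In a linear model over all 5042 genes with a term for dye orientation, limma called 7 of the 8 lower in ∆rad3 at an adjusted p of 0.05, all but exg1, against 4.22% of all genes. As the list was drawn up with these values known, nothing is read from either count. With the replicate number as a block the same 7 were called, against 13.6% of all genes. The call is not robust to the processing: adg2 was the only one of the 8 left without replicate 3 of WT, of ∆rad3 or of both, agn1 and adg2 were left without the dye term, 4 genes were left without ∆rad3 replicate 1 and 4 without ∆rad3 replicate 2. Without WT replicate 1, 6 were called, exg1 among them. With normexp background correction limma called none of the 8 (6 of them lower at an unadjusted p under 0.05). The differences then grew to -1.75 at agn1, -1.14 at eng1, -1.01 at adg2, -0.94 at exg1, -0.55 at mid2 and -0.42 at adg3. They did not grow at adg1 (-0.62) and cfh4 (-0.33). Above the median probe, limma called 7 of the 8 in WT, all but cfh4, against 27.2% of genes, and 3 in ∆rad3 (agn1, exg1 and mid2) against 29.7%, and nothing is read from these counts either.

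**Figure D2:**
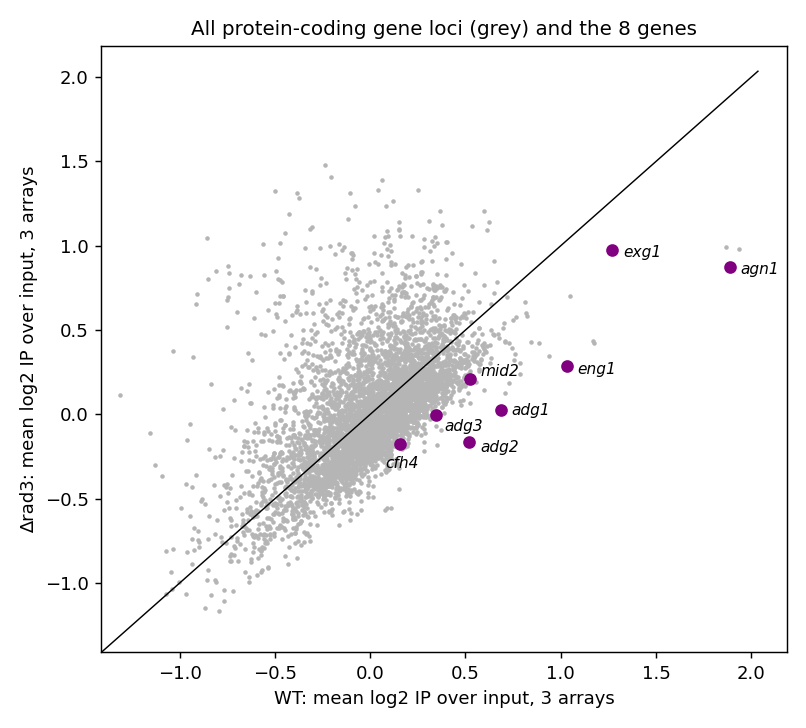
Mean log2 IP over input of 3 ∆rad3 arrays (vertical) against that of 3 WT arrays (horizontal) for 5042 protein-coding genes (grey) and the 8 genes (purple). The line marks equal values; all 8 genes lie below it, agn1 at 1.89 and 0.88 and adg2 at 0.52 and -0.16.

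The ratio has an IP and an input channel, and the strains differed mainly in the IP. The mean IP was lower in ∆rad3 at each of the 8 genes, by -1.07 to -0.31, while the mean input moved by -0.15 to 0.02. Both channels are given as log2 signal relative to the array median. The IP of agn1 was 1.95, 3.17 and 2.57 in WT and 0.98, 1.97 and 1.51 in ∆rad3, with a mean difference of -1.07, whereas its input moved by -0.04. For adg2 the IP went from 1.24 ± 0.08 to 0.53 ± 0.01 and the input from 0.74 ± 0.06 to 0.73 ± 0.06. The median difference of the 8 genes was -0.57 in IP and -0.05 in input. Over all genes these medians were -0.08 and -0.01.

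eng1 was the gene whose input moved most. Its input was 0.06, 0.10 and -0.02 in WT and -0.03, -0.09 and -0.20 in ∆rad3, with every ∆rad3 array the lower, a pattern seen at 2.32% of all genes in that channel. The input difference of -0.15 ran in the direction that raises a ratio, and the IP of eng1 moved by -0.92. In the IP channel the ∆rad3 arrays were all below the WT arrays at 5 genes (eng1, adg2, adg3, cfh4 and mid2), as at 16% of all genes.

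The levels of input set the genes apart from one another. agn1, exg1 and adg2 had an input above the array median in both strains (0.69, 0.55 and 0.74 in WT), so their high ratios came with a raised IP signal. adg1 had an input of -0.68 ± 0.04 in WT and -0.75 ± 0.07 in ∆rad3. Its IP in WT, at -0.02 ± 0.55, was near the array median and above its input, and its WT ratio was 0.69. Why the input of adg1 was low was not tested. Probe G+C content was 35.9% to 38.8% over the 8 genes, with a median of 36.7% over all genes. The 5th and 95th percentiles of all genes were 34.9% and 38.4%, and exg1, at 38.8%, lay above the latter. At least 5 of the 6 arrays had input well above background at every probe of the 8 genes.

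**Figure D3:**
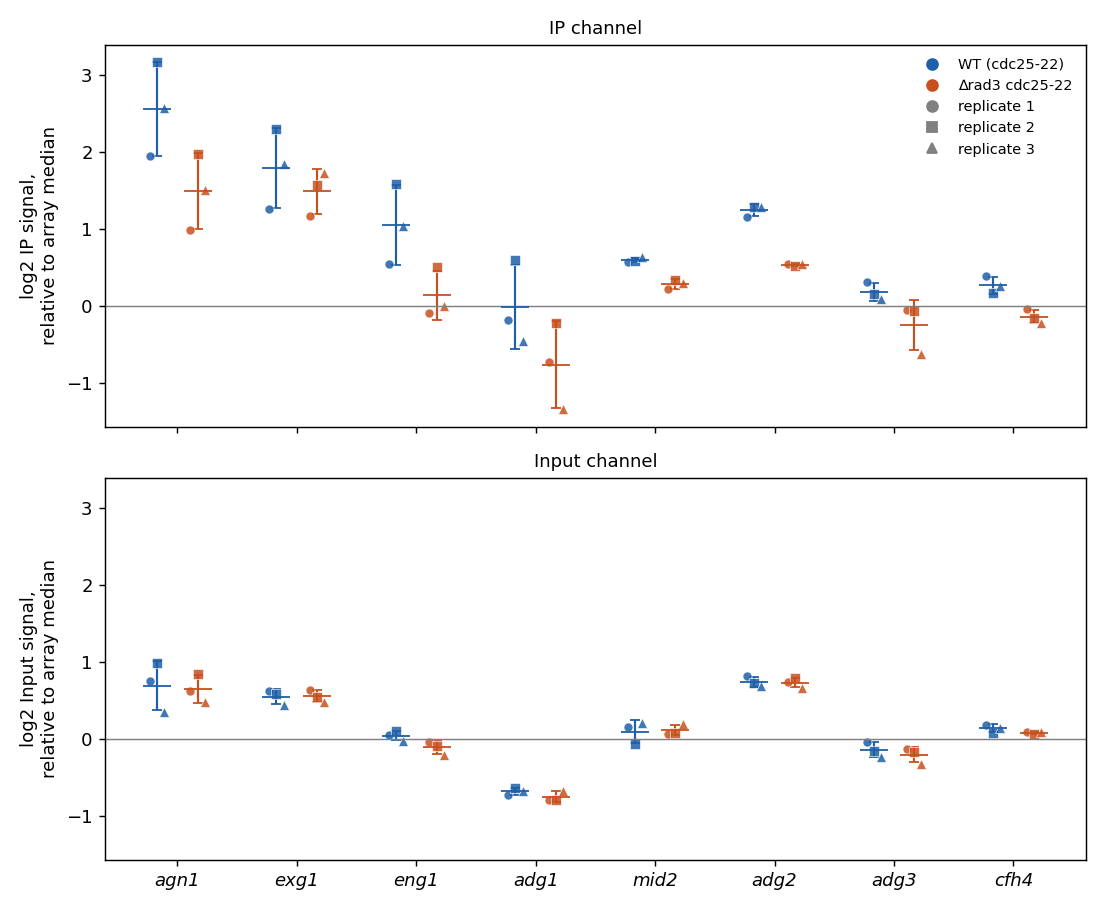
Log2 IP signal (top) and log2 input signal (bottom), each relative to the array median, for the 3 WT arrays (blue) and 3 ∆rad3 arrays (orange), on the same vertical scale. Bars are means and whiskers SD over 3 arrays. The colours part in the IP panel, by -1.07 at agn1 and -0.71 at adg2, and lie close together in the input panel, with the widest gap of -0.15 at eng1.

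Along the genes, the median ratio over the 8 genes was higher within the transcribed unit than in the 500 bp before the start. The median WT level of the 8 genes was 0.30 in the 500 bp before the start, 0.56 in the first of 3 equal parts of the gene, 0.97 in the last of these parts and 0.82 in the 500 bp after the end. In ∆rad3 the same medians were -0.09, 0.19, 0.21 and 0.25. These medians do not describe each gene. In WT, agn1 was at 1.86 before its start and at 1.63 in its last part, and eng1 at 0.87 and 0.89. The other genes were higher in the last part than before the start. The difference between the strains had a median of -0.32 before the start, -0.40 in the first part, -0.59 in the last part and -0.59 after the end. In the last part all 8 genes were lower in ∆rad3, by -1.03 to -0.40, and 5 of them without overlap of the arrays. Over the last parts of all genes with a probe there, 57.7% had a lower mean in ∆rad3 and 9.57% were lower without overlap, and nothing is read from the members' count.

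The shape differed from gene to gene. agn1 was highest near its start: the probe at 5237976 to 5238035 of the array's own coordinates, 118 bp into the gene, reached 1.94, 2.72 and 2.73 in WT and 0.79, 1.75 and 1.52 in ∆rad3, which is 5.50 and 2.56 times the median probe on average. At eng1 the highest single probe in WT lay 469 bp from its start (998632 in ASM294v3), with 1.61 ± 0.41 in WT and 0.92 ± 0.28 in ∆rad3. The first and middle parts of eng1 did not differ beyond their spread, at 1.22 ± 0.67 and 1.18 ± 0.52 in WT. At adg2 and adg3 the last part stood out. There adg2 was at 1.05 ± 0.11 in WT and 0.44 ± 0.06 in ∆rad3, against 0.35 ± 0.15 and -0.29 ± 0.10 in its first part, and adg3 was at 0.86 ± 0.21 and 0.28 ± 0.25, against 0.14 ± 0.09 and -0.11 ± 0.17. The height of adg3 was thus in its 3′ part, and 1 probe there (93.3% along the gene) ran from 0.63 to 1.84 on the WT arrays.

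exg1 changed its shape between the strains. In the 500 bp before its start the ratio was 0.79 ± 0.38 in WT and 1.02 ± 0.36 in ∆rad3, a difference of 0.23 in the opposite direction to the gene itself. Between 500 and 2000 bp before the start it was 0.46, 0.74 and 0.38 on the WT arrays and 0.83, 0.86 and 1.24 on the ∆rad3 arrays. Every ∆rad3 array was above every WT array there, by 0.45 on average. Within the gene the difference was -0.28 in the first, -0.43 in the middle and -0.53 in the last part, and the strains overlapped in each of these 3 parts.

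**Figure D4:**
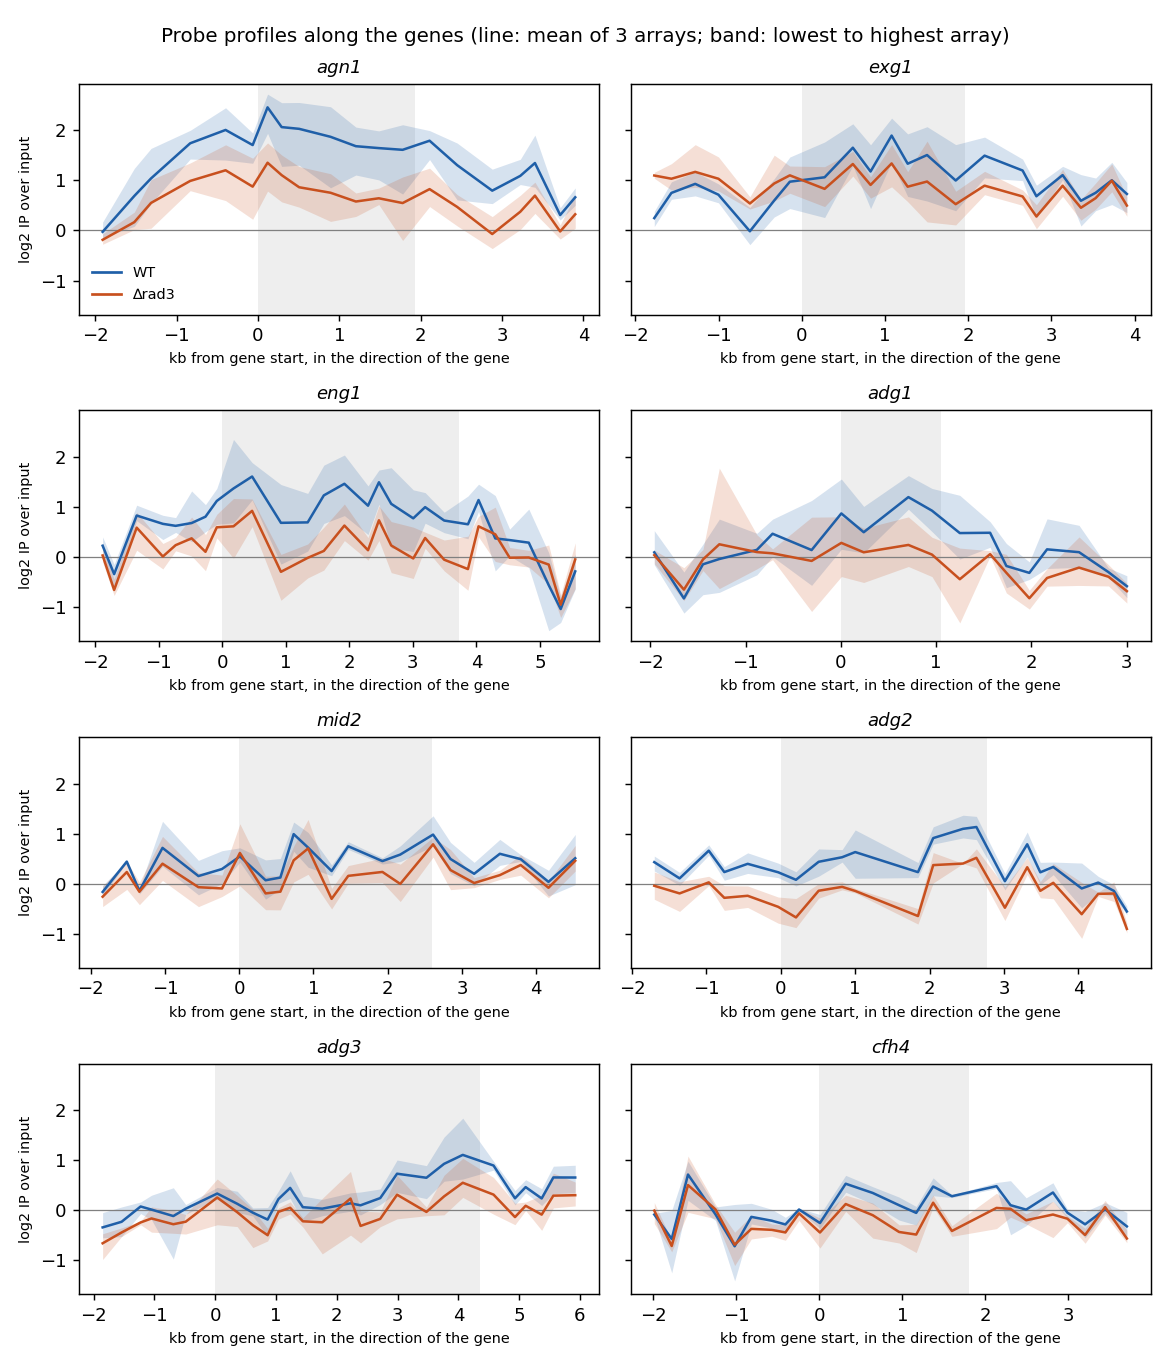
Log2 IP over input (relative to the median probe) of single probes from 2 kb before the start to 2 kb after the end of each gene, in the direction of the gene (grey: the gene). Lines are means of 3 arrays and bands run from the lowest to the highest array (blue WT, orange ∆rad3). The blue line lies above the orange one across agn1 and adg2 (-1.03 and -0.61 in their last parts), while at exg1 the lines cross at the start of the gene.

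The genes on either side of each member were measured too. Values here are of probes inside the neighbour only. agn1 overlaps mug5 on one side and SPAC14C4.10C on the other in the annotation, and both shared its drop: mug5 went from 1.82 ± 0.37 to 1.02 ± 0.42 and SPAC14C4.10C from 1.27 ± 0.38 to 0.46 ± 0.29. These values rest in part on the same probes as agn1. On either side of adg2, tpp1 went from 0.13 ± 0.11 to -0.21 ± 0.06 and ted1 from 0.37 ± 0.06 to -0.11 ± 0.13. With their flanks, both were called lower by limma (differences of -0.35 and -0.50, adjusted p = 0.0175 and 0.00315).

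The neighbours of eng1, exg1 and adg1 varied. slp1, the gene of an activator of the anaphase-promoting complex, lies 996 bp from eng1 in the divergent direction, and it stood at 0.11 ± 0.11 in WT and 0.11 ± 0.07 in ∆rad3. sod1, 476 bp beyond the end of eng1, went from 0.33 ± 0.33 to 0.09 ± 0.20 and did not pass the test with its flanks (limma adjusted p = 0.0931). cbp1, upstream of exg1, rose from -0.12 ± 0.02 to 0.35 ± 0.33, and with its flanks the rise of 0.54 passed (limma adjusted p = 0.0048). abp1, next to the 3′ end of adg1, was called lower with its flanks (-0.37, limma adjusted p = 0.0238). On the other side, 5975 bp from the start of adg1, SPAC2H10.04 rose from -1.05 ± 0.21 to 0.72 ± 0.58, and with its flanks by 1.65 (limma adjusted p = 0.000407). Only 2 probes lay inside SPAC2H10.04.

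The 6 neighbours of adg3, cfh4 and mid2 all had a lower mean in ∆rad3, and none passed the test with its flanks (limma adjusted p = 0.0891 to 0.307). The arrays did not overlap at 2 of them. Of all genes, taken with their flanks, 57.5% had a lower mean and 14.4% were lower without overlap, and nothing is read from these counts of neighbours. mak3, beyond the end of adg3, went from 0.58 ± 0.08 to 0.31 ± 0.15, and SPBC3E7.11C, beyond the end of cfh4, from 0.09 ± 0.15 to -0.11 ± 0.04. The calls of neighbours on all sides were lost with normexp (limma adjusted p = 0.195 to 0.572). Those of tpp1 and abp1 were also lost with probes inside the gene only (limma adjusted p = 0.0517 and 0.0736), and without replicate 3 of either strain or both only SPAC2H10.04 was still called (limma adjusted p = 0.000164).

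Other listed genes of septation and the cell wall did not share the drop as a group. The list of 73 such genes was drawn up by known function, but with earlier results of these arrays known. It leaves out the members, which were picked with such results known too. The contrast with the members therefore cannot show whether the drop is particular to them. The list matched 70 measured genes. Of these, limma called 3 lower (4.29%) and 9 higher (12.9%) in ∆rad3, near the shares of all genes (4.22% lower and 13.7% higher). The median difference of the list was 0.03. With the replicate number as a block 6 of the 70 were lower and 16 higher. Of all 5042 genes, this fit called 688 lower (13.6%) and 931 higher. Without replicate 3 of either strain or both, limma called no list gene (9 higher and 1 lower at an unadjusted p under 0.05). Of all genes it then called 307 higher and 13 lower.

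Regulator genes of the wave were mixed. Of 5 listed genes of transcription factors and the kinase Plo1, limma called 2 higher and 0 lower in ∆rad3. Of all genes, 13.7% were called higher and 4.22% lower, and nothing is read from so small a count. A lower mean in ∆rad3 was seen at 2 of the 5, against 57.5% of all genes. The 2 called were fkh2, from 0.09 ± 0.04 to 0.47 ± 0.10 (limma adjusted p = 0.0145), and sep1, from -0.17 ± 0.11 to 0.22 ± 0.05 (limma adjusted p = 0.0103). Of 11 other wall hydrolases and transglycosylases, 2 were called higher (18.2%), near the 13.7% of all genes. bgl2, a glucanase-family gene, rose by 0.41 (limma adjusted p = 0.00713). eng2, a relative of eng1 that acts on the wall of the ascus, lay below the median probe on all 6 arrays and rose by 0.44 (limma adjusted p = 0.0148).

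Septin, ring and septation signalling genes gave 4 rises among 27 (14.8%), near the 13.7% of all genes. sid4, a scaffold of septation signalling at the spindle pole body, rose by 0.47 (limma adjusted p = 0.00569), the F-BAR gene imp2 by 0.44 (0.00855), the septin gene spn2 by 0.39 (0.0222) and the IQGAP gene rng2 by 0.32 (0.03). Among 21 glucan and chitin synthesis genes, cfh3, a relative of cfh4 that the annotation calls chr4, rose by 0.40 (limma adjusted p = 0.0194), while the α-glucan synthase genes mok12 and ags1 were lower by -0.31 and -0.28 (0.0458 and 0.0485). The kinesin gene klp5 was 1 of 6 other late-mitosis genes and was lower, at -0.29 (limma adjusted p = 0.0475). Of the 21 synthesis genes 4.76% were called higher and 9.52% lower, and of the 6 late-mitosis genes 16.7% were called lower. The shares of all genes were 13.7% higher and 4.22% lower, and nothing is read from these small counts. ags1 and klp5 were named after their values were seen, to complete the 3 lower genes. Without the dye term limma called no list gene lower, against 37 of all 5042 genes (3 list genes at an unadjusted p under 0.05).

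The genes whose ratios over the 6 arrays were nearest to the mean of the 8 were SPCC794.03 (III, 245927 to 247871), tfb5, cdc22, SPAC1039.03 and knh4, with root mean square differences of 0.09, 0.10, 0.13, 0.13 and 0.14. They were the nearest of all other genes that share no probe with the 8. cdc22, the gene of the large subunit of ribonucleotide reductase, the enzyme that hydroxyurea inhibits, went from 0.79 ± 0.29 to 0.24 ± 0.11. tfb5, a gene of the transcription and repair factor TFIIH, went from 0.76 ± 0.20 to 0.36 ± 0.17 (n = 3 arrays per strain for each).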

How the data were processed

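Ssb1 IP and input DNA were measured on 6 two-colour arrays, 3 per strain, grouped and numbered by their titles. The deposited scanner files hold spot intensities from Agilent Feature Extraction (version 10.7.1.1 for replicates 1 and 10.7.3.1 for the others, per the file headers; the submitters' processing notes give 10.7.3.1), background-subtracted, detrended and scaled by a linear dye factor per the file headers. The deposited log10 ratio has red as numerator and was not used for the main values. The value table of the authors gives IP divided by input as a linear ratio, equal to the scanner ratio within 1% at 99.9% or more of probes on each array, with medians of 0.996 to 1.06, and was used as an alternative. The IP was green on replicates 1 and 2 and red on replicate 3, per the labels.

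Processed signals gave log2 IP over input, centred on the array median, with no loess or quantile step. Spots with an outlier flag (2 to 401 per array, 4 in the member genes) were left out. Array coordinates are of a build that the headers call Spombe:NCBI:Feb2002. Probe length, which falls with G+C content, was set against the G+C of ASM294v3 at a series of offsets, using no signal. In 39 of 39 windows of 150 probes from 3784546 on, on the right part of chromosome I, the best offset was within 20 bp of 6150 bp. In 243 of 243 windows elsewhere it was within 20 bp of 0. The 1 window that spans the break, from 3751160 to 3822918, had its best match at -12330 bp (r = -0.30) and was set aside. For naming genes, 6150 bp was therefore added there, which concerns agn1, adg1, adg2 and mid2.

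Gene means were fitted with limma 3.58.1 in R 4.3.3 on all 6 arrays (a mean per strain and dye orientation, 9.09 prior and 3 residual degrees of freedom, two-sided, Benjamini-Hochberg at 0.05 over 5042 genes), checked on simulated data. Neighbouring genes can share probes. With 3 arrays a strain, the smallest p of an exact permutation test is 0.1. Same-numbered arrays shared a slide, and their deviations from the strain means correlated at 0.617, 0.54 and 0.61 over genes, so the numbers pair the arrays. The main fit has no slide term, and its p-values, which are those printed, do not use this pairing. The fit with the replicate number as a block does use it. It called 688 genes lower and 931 higher in ∆rad3, against 213 and 691 in the main fit. Other steps used Python 3.11.15, pandas 2.3.3, numpy 2.4.6 and matplotlib 3.10.9.

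The members and lists were chosen with earlier results of these data known. Named beyond the members are up to 10 list genes called between the strains, largest first, genes bordering a member and the 5 genes nearest to the members' mean. No protein sequences are printed, and 1 listed gene and results resting on it are not reported here. Alternatives covered the flank, background correction, source of the ratio, centring, dye term, replicate block, dim probes, summary, offset and left-out arrays.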

Additional observations from a re-analysis of the deposited data

How the results depend on the processing

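With the offset on chromosome I corrected, and counting once the settings that give the same difference by construction, the difference of the 8 genes was below 0 in 95 of 96 values over 12 alternatives each, the exception being exg1 without WT replicate 2 (0.03). All alternatives re-use the same 6 arrays, and leaving out dim probes or taking the authors' value table gave nearly the main values. The 8 genes were picked with results of these arrays known, so nothing is read from this count. The number of the 8 genes called lower by limma in ∆rad3 (7) was less stable: 4 with probes inside the gene only, 3 centred on the mode, 2 without the dye term, 0 with normexp and 1 to 6 with arrays left out. With normexp their median difference was -0.78, and none was called above the median probe in ∆rad3. The replicate block kept the 7 lower calls and gave 8 genes above the median probe in WT and 4 in ∆rad3. Over all genes, 691 were higher and 213 lower (76.4% of calls higher). Centring on the mode gave 697 and 65 (91.5% higher), and the block gave 931 higher and 688 lower. Probes inside the gene only gave 72 lower, and no dye term 441 higher and 37 lower. limma with normexp called 0 higher and 0 lower (392 and 340 at an unadjusted p under 0.05). Leaving out arrays gave 307 to 698 higher and 13 to 268 lower. Genes called above the median probe numbered 348 in WT and 127 in ∆rad3 with normexp, 872 in WT centred on the mode, 821 in WT without both replicates 3, and 562 to 1373 in WT and 601 to 1540 in ∆rad3 with arrays left out. Of the list of related genes, 9 were higher: 5 inside the gene only, 4 without the dye term, 16 with the block, 0 with normexp (3 unadjusted) and 0 to 11 with arrays left out. The 3 list genes lower became 6 with the block and 0 to 2 with arrays left out. limma called 0 lower inside the gene only (8 unadjusted), with a 250 bp flank (7), with normexp (2), centred on the mode (3), without the dye term (3) and with the median over probes (6). The causes were not tested. Without replicate 3 of a strain, the dye term takes up the lone red array of the other, so for the difference between the strains, though not for the levels, these fits equal leaving out both. Without the offset, probes of other sequence stand for the genes on the right part of chromosome I. The differences were then 0.14 at agn1, 1.76 at adg1, 0.35 at SPAC14C4.10C, 0.0393 at ted1 and 0.88 at abp1, and the levels -0.73 for adg1, -0.48 for adg2 and -0.13 for mid2 in WT and -0.20 for mid2 in ∆rad3. The median difference was then -0.18, with 3 genes called lower and 4 above the median probe in WT.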
